A study of Mus musculus with 30 samples.

Results

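The genes described here are the 4 tissue inhibitors of metalloproteinases, Timp1, Timp2, Timp3 and Timp4, and Reck, a membrane-anchored inhibitor of the same enzymes. They were chosen by name, and all 5 were among the 35973 genes of the RNA table for blebbistatin. In the 5 deposited lists of changed chromatin sites, 15 of 16367 sites, counted per list, were annotated to a Timp gene and none to Reck. The cells were primary wildtype mouse fibroblasts from tail tendon, and the study addressed how mechanical cues and the co-regulators Yap and Taz act on chromatin and transcription. RNA was measured in 3 libraries each of cells given the solvent DMSO, 10 µM blebbistatin, which blocks non-muscle myosin II, or 30 µM Y27632, a small-molecule kinase inhibitor. Accessible chromatin was assayed by ATAC for the same treatments in 3 libraries each. A further 12 libraries, 3 per group, covered neither drug, blebbistatin alone, doxycycline at 10 ng/mL alone, and both drugs, and the labels give no assay for these in particular. All treatments were given in medium with 0.1% serum. The labels name no time of treatment, do not say what doxycycline induced, list these cells too as wildtype, and do not say whether replicates came from separate animals or cultures. The p-values therefore measure the spread between these libraries, which may be technical.

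The Timp proteins are secreted. Each binds the active site of matrix metalloproteinases in a tight complex, so the balance of inhibitor and enzyme sets how fast collagen and other matrix proteins are cut. Timp2 also brings the proenzyme of Mmp2 to Mmp14 at the cell surface, where it is activated. Timp3 stays bound to the matrix and, beyond the matrix metalloproteinases, inhibits Adam17 and the aggrecan-cleaving enzymes Adamts4 and Adamts5. Reck is held in the plasma membrane by a lipid anchor and restrains Mmp2, Mmp9 and Mmp14, and it also acts with Adgra2 as a receptor for Wnt7 proteins.

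In GRCm38.p6, which has the coordinates of the build mm10 named in the submitters' processing notes, Timp1 lies on chromosome X at 20870166 to 20874737, Timp2 on chromosome 11 at 118301061 to 118355411, Timp3 on chromosome 10 at 86300412 to 86349505, Timp4 on chromosome 6 at 115244444 to 115252205 and Reck on chromosome 4 at 43875521 to 43944806. Timp1, Timp3 and Timp4 each lie inside a synapsin gene, Syn1, Syn3 and Syn2 in that order. The 250 bases before the transcript start are shown for 3 of the genes, Timp3 because a changed site reached into this window, and Timp1 and Reck because their windows hold the core of the TEAD motif. TEAD proteins are the DNA-binding partners of Yap and Taz. The sequences are from RefSeq, 5′ to 3′ on the gene's strand, with GGAATG or its reverse complement CATTCC in capitals.
Timp3 (chr10:86300162-86300411, plus strand): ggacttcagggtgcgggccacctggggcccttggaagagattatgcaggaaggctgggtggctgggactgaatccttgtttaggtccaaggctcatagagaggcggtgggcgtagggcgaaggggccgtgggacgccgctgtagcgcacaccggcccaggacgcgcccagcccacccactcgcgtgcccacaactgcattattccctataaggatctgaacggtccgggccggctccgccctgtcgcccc
Timp1 (chrX:20869916-20870165, plus strand): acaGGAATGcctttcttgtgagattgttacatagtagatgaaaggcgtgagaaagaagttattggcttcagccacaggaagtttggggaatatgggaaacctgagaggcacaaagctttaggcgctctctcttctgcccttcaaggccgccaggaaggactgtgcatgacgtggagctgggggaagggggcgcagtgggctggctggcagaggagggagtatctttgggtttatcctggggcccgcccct
Reck (chr4:43875280-43875529, plus strand): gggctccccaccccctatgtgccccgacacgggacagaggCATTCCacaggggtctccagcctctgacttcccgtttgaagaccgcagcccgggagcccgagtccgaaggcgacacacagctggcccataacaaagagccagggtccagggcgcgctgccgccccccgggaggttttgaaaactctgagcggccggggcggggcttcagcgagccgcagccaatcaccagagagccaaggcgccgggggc
The motif lies 247 to 242 bases before the start of Timp1, and in Reck its reverse complement lies 210 to 205 bases before the transcript start that the Reck window uses, 43875530, so the last 9 bases of that window lie inside the span given above for Reck. The windows of Timp2, Timp3 and Timp4 held no match on either strand. Of 32851 windows of the same length in the reference, 12.6% held GGAATG on either strand. No window of the 5 genes held the AP-1 motif TGANTCA, which 6.75% of all windows held, or a CArG box, the motif of serum response factor, which 1.47% held. The GC box GGGCGG, present in 32.7% of all windows, was found for Timp1, Timp2, Timp3 and Reck. The searched motifs do not overlap each other in these 5 windows. A match describes letters and not binding.

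The RNA libraries held 23375386 to 37061737 reads in genes. The summed level of 8 fibroblast and tendon markers was 28036 to 32728 CPM (reads scaled to a common library size) in every library. Most of that sum was Col1a1, Col1a2 and Col3a1, while Scx averaged 2.40 CPM with DMSO. Of the 8, 2 were called higher and 4 lower with blebbistatin, beside 26.1% and 26.9% of all genes tested. With Y27632, 3 were called higher and 0 lower, beside 18.1% and 17.8%. Markers of epithelium stayed at or under 0.758 CPM. Skeletal muscle markers stayed at or under 0.386 CPM, with Myod1 and Ckm at 0 reads. The summed level of 5 leukocyte markers was 47.5 to 54.5 CPM with DMSO, 67.0 to 79.0 with blebbistatin and 65.0 to 76.0 with Y27632, and the 4 that could be tested, all but Cd3e, which held 0 reads in every library, were called higher with either inhibitor. The endothelial sum of 4 markers was 119 to 121 CPM with DMSO, 74.7 to 83.5 with blebbistatin and 106 to 113 with Y27632. Most of that sum was Tek, 1 of the 2 tested markers, called lower with either inhibitor. Cdh5, the other tested marker, was not called and averaged 2.52 CPM with DMSO, 3.11 with blebbistatin and 3.18 with Y27632. Pecam1 also averaged higher with either inhibitor (0.217, 0.293 and 0.342 CPM in the same order), and Emcn held 0 reads with DMSO. The sum of 4 cartilage markers was 15.7 to 17.8 CPM with DMSO, 23.8 to 27.1 with blebbistatin and 23.5 to 26.6 with Y27632, with 2 of 3 tested called higher with either inhibitor. Smooth muscle and pericyte markers summed to 77.3 to 85.6 CPM with DMSO, 87.2 to 98.3 with blebbistatin and 84.4 to 105 with Y27632. Most of that sum was Cspg4, called higher with either inhibitor, while Cnn1 was called lower with either (log2 change -0.62 with blebbistatin and -0.75 with Y27632), Rgs5 was called lower with blebbistatin and Myh11 was not called. Neural and glial markers summed to 4.23 to 4.85, 3.09 to 3.31 and 3.47 to 5.42 CPM in the same order, with Sox10 called higher with either inhibitor (0.822 CPM with DMSO and 1.64 with blebbistatin on average) and Tubb3 called lower with blebbistatin (2.86 and 1.22). The part of these differences in the results below was not tested. In bulk RNA, fewer cells of a type and less RNA per cell cannot be told apart.

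The first comparison asked how the inhibitors' RNA differed after myosin was blocked. With blebbistatin, Timp3, Timp1 and Reck fell and Timp2 and Timp4 rose. Timp3 fell 2.53-fold, Timp1 by 19.3% and Reck by 19.4%, and Timp2 rose by 17.8%. All 5 genes were called, 2 higher and 3 lower, by limma at a Benjamini-Hochberg adjusted p under 0.05. Timp4, counted among those higher, reached the minimum count for testing only through the blebbistatin libraries. Among the 14882 genes tested, 53.0% were called, 26.1% higher and 26.9% lower, so a call alone was common in these libraries. The median log2 change was -0.31 over the 5 genes and 0.00 over all genes tested.

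Timp3, the matrix-bound inhibitor, had normalised read counts of 11681, 11388 and 11685 in the 3 DMSO libraries and 4517, 4637 and 4607 in the 3 blebbistatin libraries. Every blebbistatin library was far below every DMSO library, and the spread within each group was small. The mean went from 11585 ± 171 to 4587 ± 62.2 (SD, n = 3 each). The log2 change was -1.34 (standard error 0.029), with a 95% interval of -1.40 to -1.27 (limma adjusted p = 7.10e-12).

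Timp1, which inhibits most of the secreted metalloproteinases, had normalised counts of 4874, 5330.3 and 5663 with DMSO and 4648, 4168 and 3994 with blebbistatin. The groups did not overlap, but the lowest DMSO library and the highest blebbistatin library were close. The mean went from 5289 ± 396 to 4270.0 ± 339 (SD, n = 3 each). The log2 change was -0.31 (standard error 0.060, limma adjusted p = 0.000889).

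Reck had normalised counts of 1598, 1606 and 1582 with DMSO and 1263, 1268 and 1326 with blebbistatin. The groups were well apart, and the DMSO libraries were nearly equal. The mean went from 1595 ± 12.3 to 1286 ± 34.9 (SD, n = 3 each). The log2 change was -0.31 (standard error 0.040, limma adjusted p = 2.95e-05).

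Timp2, the inhibitor that also takes part in the activation of Mmp2, went the other way. Its normalised counts were 38281, 37352 and 37689 with DMSO and 44397, 44925 and 44218 with blebbistatin, with no overlap. The mean went from 37774 ± 470.3 to 44513 ± 368 (SD, n = 3 each). The log2 change was 0.24 (standard error 0.028, limma adjusted p = 1.76e-05).

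Timp4, the member with the fewest reads, was near the limit of detection with DMSO. The DMSO libraries held 2, 0 and 3 reads and the blebbistatin libraries 21, 33 and 37. All 3 blebbistatin libraries were therefore above all 3 DMSO libraries, at levels that remained low. The ratio of summed reads per depth was 15.5 with a 95% counting interval of 6.42 to 49.0, which covers counting error only. The log2 change was 3.57 (standard error 0.526, limma adjusted p = 0.000102), and 2.28 with a pseudocount of 5 in place of 1. Timp4 passed the minimum mean normalised count of 10 only through the blebbistatin libraries, so the filter kept it because it was high there.

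**Figure D1:**
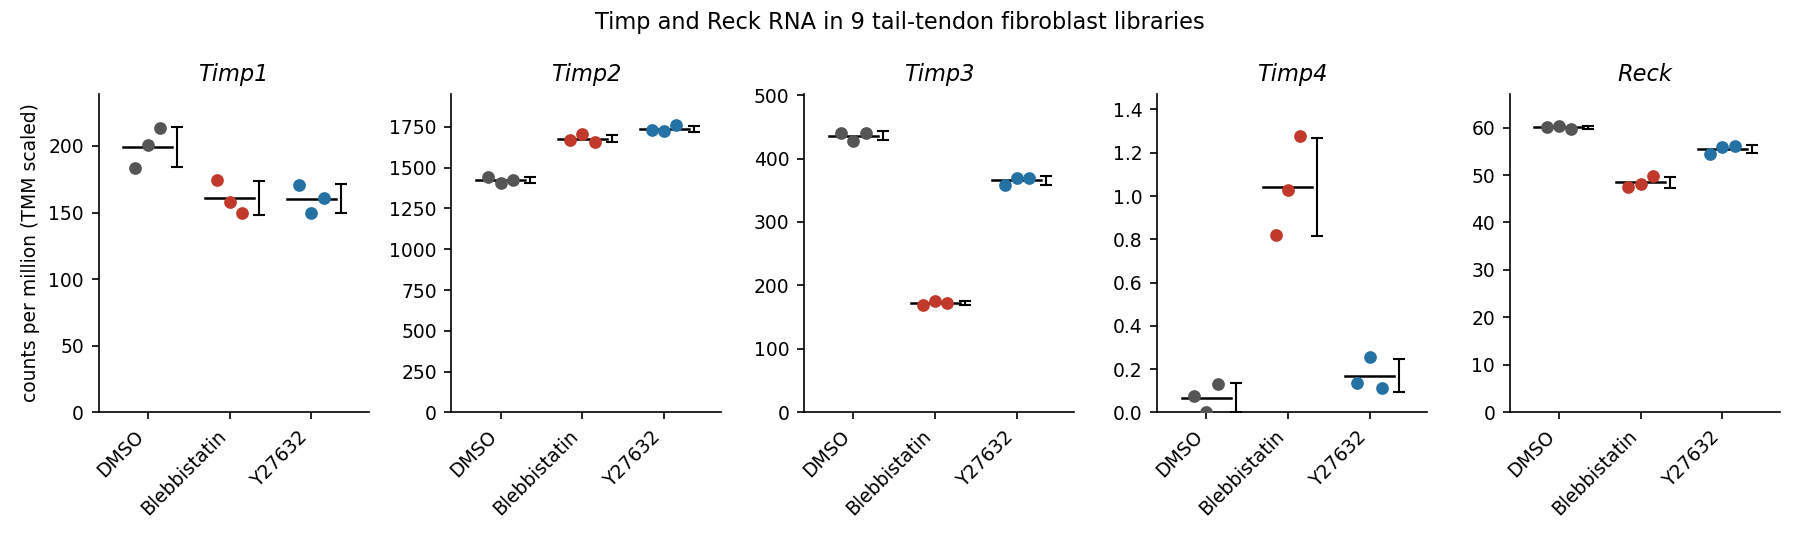
CPM, scaled together over the 9 RNA libraries, for each gene (vertical axes start at 0) by treatment (horizontal axis). Points are libraries, horizontal lines are group means and bars are 1 SD (n = 3). Timp3 stands at 170 to 176 with blebbistatin against 428 to 441 with DMSO and 358 to 369.5 with Y27632, while Timp4 stays at or below 1.28 in every library.

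The second comparison used the same 3 DMSO libraries, so it is not independent of the first, and its table had been scaled separately. With Y27632, Timp1 fell by 19.5%, Timp2 rose by 22.2%, and Timp3 fell by 16.3%. Reck was lower by 7.65%, which was called by limma but not by DESeq2. Of the 4 genes that could be tested, 1 was called higher and 3 lower. Among the 14833 genes tested, 35.9% were called, 18.1% higher and 17.8% lower. The median log2 change of the 4 genes was -0.19, against 0.00 over all genes tested.

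Timp3 had normalised counts of 12144, 11822 and 12143 with DMSO and 9838, 10167 and 10224 with Y27632. The groups did not overlap. The mean went from 12036 ± 186 to 10076 ± 209 (SD, n = 3 each), with a log2 change of -0.26 (standard error 0.029, limma adjusted p = 2.16e-05). Timp1 had normalised counts of 5067, 5534 and 5885 with DMSO and 4699.7, 4116 and 4453 with Y27632. Its groups did not overlap, and the mean went from 5495 ± 410.5 to 4423 ± 293 (SD, n = 3 each), with a log2 change of -0.31 (standard error 0.055, limma adjusted p = 0.000671).

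Timp2 had normalised counts of 39797, 38776 and 39166 with DMSO and 47599.7, 47572 and 48676 with Y27632. Every Y27632 library was above every DMSO library. The mean went from 39247 ± 515 to 47949 ± 629 (SD, n = 3 each), with a log2 change of 0.29 (standard error 0.029, limma adjusted p = 7.34e-06).

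Reck had normalised counts of 1661, 1667 and 1644 with DMSO and 1499, 1538 and 1554 with Y27632, again with no overlap. The log2 change was -0.11 (standard error 0.037), with a 95% interval of -0.19 to -0.036 (limma adjusted p = 0.0267). DESeq2 on the recovered reads gave an adjusted p of 0.0857, and the authors' deposited table gives 0.100 for the same gene. The call was also lost when any one of 4 of the 6 libraries was left out, namely DMSO 1 (adjusted p = 0.0590), DMSO 2 (0.0749), Y27632 1 (0.0950) and Y27632 2 (0.0549), in limma.

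Timp4 held 5, 8 and 3 reads in the Y27632 libraries, against 2, 0 and 3 with DMSO. The groups overlapped, and the mean was too low for the test. The ratio of summed reads per depth was 2.52 with a 95% counting interval of 0.881 to 8.78, so a difference was not detectable at this depth. Without the filter, limma gave a log2 change of 1.17, standard error 0.574 (adjusted p = 0.184).

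The 2 inhibitors were then compared with each other on whole reads, scaled together over the 9 libraries, with the quasi-likelihood test of edgeR. Timp3 and Reck were lower with blebbistatin than with Y27632, Timp4 was higher, and Timp1 and Timp2 were not called. This made 1 gene higher and 2 lower of 5, while 53.1% of the 14955 genes tested were called, 26.9% higher and 26.2% lower. Timp4, the gene counted as higher, reached the minimum count for testing only through the blebbistatin libraries. Its call therefore describes the reads and adds no support to that count. The median log2 difference was -0.04 over the 5 genes and 0.01 over all genes tested.

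The separation was largest for Timp3 among the abundant members. Its level was 436 ± 6.96 CPM with DMSO, 365 ± 6.52 with Y27632 and 173 ± 3.04 with blebbistatin (SD, n = 3 each), and no libraries of different groups overlapped. The log2 difference, blebbistatin minus Y27632, was -1.07 with a 95% interval of -1.13 to -1.01 (edgeR adjusted p = 3.04e-12). Reck followed the same order, at 60.1 ± 0.357, 55.5 ± 0.864 and 48.5 ± 1.17 CPM (SD, n = 3 each). Its log2 difference was -0.18 with a 95% interval of -0.26 to -0.10 (edgeR adjusted p = 0.000756).

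Timp4 had 91 reads in the blebbistatin libraries and 16 in the Y27632 libraries, a ratio per depth of 6.18 with a 95% counting interval of 3.61 to 11.3. The log2 difference was 2.60 with a 95% interval of 1.77 to 3.43 (edgeR adjusted p = 5.97e-05). Without blebbistatin library 2 or library 3, Timp4 fell under the minimum of 10 mean reads and was not tested, so here too it passed the filter only through the blebbistatin libraries.

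Timp1 stood at 199 ± 15.2 CPM with DMSO, 161 ± 12.7 with blebbistatin and 160.4 ± 10.8 with Y27632 (SD, n = 3 each). The libraries of the 2 inhibitors overlapped, and the log2 difference between them was 0.015 with a 95% interval of -0.12 to 0.15 (edgeR adjusted p = 0.856). Its sign turned when blebbistatin library 1 (-0.057) or Y27632 library 2 (-0.034) was left out. Timp2 stood at 1422 ± 17.9 CPM with DMSO, 1678 ± 23.7 with blebbistatin and 1739 ± 17.7 with Y27632. The libraries of the 2 inhibitors did not overlap on this scale, but the log2 difference was -0.04 with a 95% interval of -0.094 to 0.014 (edgeR adjusted p = 0.196). These intervals bound the differences and do not show that the inhibitors act alike on Timp1 or Timp2.

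**Figure D2:**
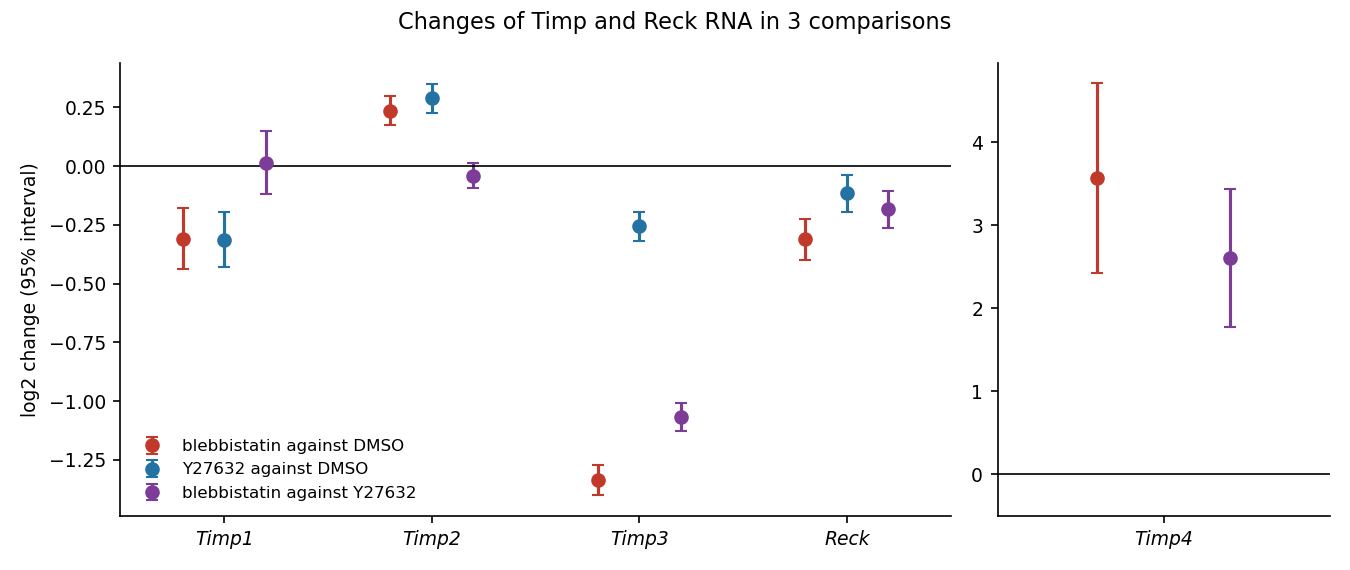
Log2 changes (vertical axis) with 95% intervals for each gene (horizontal axis) in the 3 comparisons. The left panel holds the abundant genes and the right panel, on its own scale, Timp4, which was not tested for Y27632. The blebbistatin and Y27632 changes are -1.34 and -0.26 for Timp3 and -0.31 and -0.11 for Reck, while those of Timp1 and Timp2 have overlapping intervals.

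Across the 9 libraries, Timp3 and Reck had a Pearson correlation of 0.97 on the log2 CPM scale. Timp1 and Timp2 had a correlation of -0.85. Points here come in 3 treatment groups and share scaling, so these values describe the group differences and carry no test. Among 11464 genes with at least 100 mean reads, the genes most like Timp3 were Oxr1 at 0.999, which codes for a protein of the oxidative stress response, and Amotl2 at 0.999, an angiomotin that binds Yap. The genes most like Reck were Atl3 at 0.998, Bicd2 at 0.997 and Stc2 at 0.996. For Timp1 they were Nptn at 0.983, Nfyc at 0.975 and C1galt1c1 at 0.965, and for Timp2 they were St3gal1 at 0.992, Slc6a6 at 0.992 and Phlda1 at 0.989.

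Metalloproteinases, the class of enzymes that these proteins inhibit, were examined as a list of 29 genes, of which 28 could be tested. The list was chosen with earlier results of these data known, so its shares describe the listed genes and not the class. With blebbistatin, 16 were called higher, 5 lower and 7 not, with a median log2 change of 0.25. That is 57.1% higher and 17.9% lower, beside 26.1% and 26.9% of all genes tested. With Y27632, 15 were called higher, 6 lower and 7 not, with a median of 0.15, which is 53.6% higher and 21.4% lower beside 18.1% and 17.8% of all genes. The largest rises were the same 3 genes with either inhibitor, the collagenase Mmp13 (log2 change 3.83 with blebbistatin, 2.63 with Y27632), the stromelysin Mmp10 (3.63 and 2.11) and the aggrecanase Adamts15 (3.53 and 1.66). The largest falls with blebbistatin were Adamts5 (-1.79) and Adamts1 (-1.60), proteoglycan-cleaving enzymes, and Adam19 (-0.39). With Y27632 they were Adamts4 (-1.07), Adamts5 (-0.56) and Mmp19 (-0.35). Between the inhibitors, 14 were higher with blebbistatin, 5 lower and 9 not called (median log2 difference 0.25), beside 26.9% higher and 26.2% lower of all genes, led by Adamts15 (1.87), Mmp10 (1.53) and Mmp11 (1.25) on the higher side and Adamts1 (-1.39), Adamts5 (-1.22) and Adam19 (-0.41) on the lower.

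The partners of single inhibitors did not all move one way. For Timp3, whose RNA fell with both drugs, its target Adam17 rose (0.68 with blebbistatin, 0.23 with Y27632) and its target Adamts5 fell. Its target Adamts4 fell with Y27632 (-1.07), while the blebbistatin and DMSO libraries overlapped for Adamts4. Timp2 rose together with Mmp2 (0.92 and 0.39) and Mmp14 (1.18 and 0.31), with which it forms the activation complex. Reck fell with blebbistatin while Mmp2, Mmp14 and Mmp9 (0.19) rose. These pairs were named after their values were seen, from the known partnerships, and no relation between them was tested.

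Among 15 inhibitors of other proteases, 4 were called higher, 2 lower and 9 not with blebbistatin (median log2 change 0.09), and 3 higher, 2 lower and 10 not with Y27632 (median 0.08). With blebbistatin that is 26.7% higher and 13.3% lower, beside 26.1% and 26.9% of all genes, so the share higher was near the background. With Y27632, 18.1% of all genes were higher and 17.8% lower. Tfpi, an inhibitor of coagulation, was among those lower with blebbistatin (-0.14). The rises with blebbistatin included Serpina3n (0.98), Slpi (0.33) and Cst6 (0.31), inhibitors of serine and cysteine proteases. With Y27632 they were Slpi (0.62), Serpina3n (0.21) and Cst3 (0.16), and Tfpi2 fell (-0.84). The limma calls of Cst6 with blebbistatin (adjusted p = 0.0404) and of Serpina3n with Y27632 (adjusted p = 0.0480) were lost under 8 and 10 of 14 alternatives. Between the inhibitors, 2 were higher with blebbistatin, Serpina3n (0.78) and Tfpi2 (0.62), and 2 lower, among them Slpi (-0.27), or 13.3% each way beside 26.9% and 26.2% of all genes, with a median of 0.02.

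Of 9 listed partners and receptors of the Timp and Reck proteins, 7 could be tested. With blebbistatin 1 was called higher, 4 lower and 2 not (median log2 change -0.14), and with Y27632 1 was called higher, 2 lower and 4 not (median -0.08). The shares over all genes were 26.1% higher and 26.9% lower with blebbistatin and 18.1% and 17.8% with Y27632, and with 7 genes each call moves the share by 14.3%. Cd63, a tetraspanin that binds Timp1, was higher with both (0.40 and 0.16). Itga3 (-0.80) and Itgb1 (-0.21), subunits of the integrin through which Timp2 acts, fell with blebbistatin. Adgra2, the partner of Reck in Wnt7 signalling, fell with both (-0.17 and -0.19), while Wnt7a and Wnt7b were too low to test. Efemp1, a matrix protein that binds Timp3, was lower with both (-0.14 and -0.08), the latter call being lost under 9 of 14 alternatives (limma adjusted p = 0.0498). Between the inhibitors, Cd63 was higher with blebbistatin (0.25) and Itga3 (-0.57) and Itgb1 (-0.16) were lower, with a median of -0.03 over the 7, beside 26.9% higher and 26.2% lower of all genes.

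**Figure D3:**
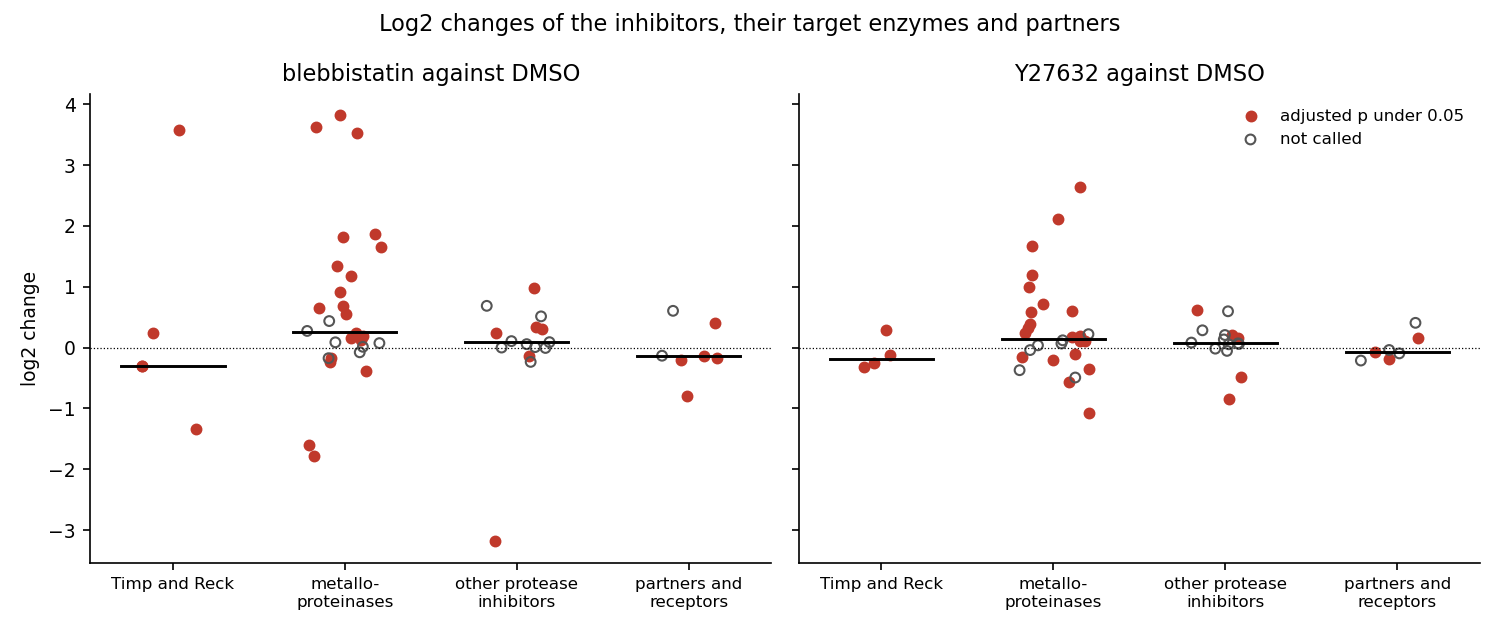
Log2 changes (vertical axis) of single genes for blebbistatin (left) and Y27632 (right), in 4 gene lists (horizontal axis, with random sideways spread). Filled points were called, open points were not, and black lines are list medians. The medians of the listed metalloproteinases lie above 0 (0.25 and 0.15) and those of the Timp genes and Reck below it (-0.31 and -0.19).

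Reads of the synapsin genes that surround 3 of the Timp genes could in part have been counted with them, since the use of strand is not stated. Of these, Syn1 and Syn3 could be tested. Neither was called with blebbistatin. With Y27632, Syn1 was lower (log2 change -0.30, limma adjusted p = 0.0242) and Syn3 was not called. That Syn1 call was lost under 5 of 14 alternatives. Syn3 held 28 to 54 reads per library and Syn1 141 to 249, while Timp3 held at least 4349 and Timp1 at least 4248. Syn2 held 2 to 4 reads per library with DMSO, 0 or 1 with blebbistatin and 0 to 7 with Y27632, beside 0 to 3, 21 to 37 and 3 to 8 Timp4 reads. Cep295nl lies inside Timp2 and was not analysed here.

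Changed chromatin sites near these genes were taken from the authors' lists, which give group means and no values per library, so no test was made here and each fold, FDR and distance is the authors'. No listed site had an FDR above 0.05 or an absolute log2 fold under 1. The smallest absolute log2 fold was 1.24 in the ATAC list for blebbistatin and 1.11 in that for Y27632. A gene without a listed site is therefore not shown to be unchanged. In the ATAC comparison of blebbistatin with DMSO, 5 sites were annotated to Timp2 or Timp3 and all 5 were lower. In that list 98.2% of the 970 sites were lower and 1.75% higher, so the direction is that of the list. None of the 207 ATAC sites changed with Y27632, of which 85.0% were lower, was annotated to a Timp gene or Reck. None of 1231 sites changed by blebbistatin without doxycycline in the other experiment, of which 99.0% were lower, was either.

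Of the 5 ATAC sites, 4 lay in a pair of places. Upstream of Timp3, inside an intron of Syn3, the site at chr10:86290076-86290426, 10161 bp before the start, had a log2 mean of 6.70 with DMSO and 5.18 with blebbistatin (log2 fold -1.52, FDR 0.0123). Its neighbour at chr10:86290504-86290627 had a log2 fold of -1.57 (FDR 0.0255). A further Timp3 site at chr10:86350400-86350561, at the end of the transcript, had a log2 fold of -1.46 (FDR 0.0404). The other place was intergenic, upstream of Timp2, where chr11:118361108-118361216 had a log2 fold of -1.92 (FDR 0.0031) and chr11:118361258-118361398 a log2 fold of -2.00 (FDR 0.00665), 5751 and 5917 bp before the start. Timp3 RNA fell with blebbistatin while Timp2 RNA rose, and the listed sites of both were lower, as were 98.2% of the list. A relation between sites and RNA was not tested.

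The ATAC blebbistatin list also gives the positions of a TEAD-like motif, found in 603 of its 970 sites (62.2%) and in 2 of the 5 sites here (40.0%). The letters as the list gives them, marked as minus-strand matches, with the core in capitals, are shown to let the sites be compared with the promoter windows.
Timp2 site, chr11:118361258-118361398: ggaCATTCCa
Timp3 site, chr10:86350400-86350561: ccaCATTCCa
The core is the same as that in the Reck window and, on the other strand, in the Timp1 window. The list gives only matches to the motif, so the shared core marks no particular likeness to these windows. The other 3 sites, which include both at the Timp3 upstream place, had no listed motif.

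In the doxycycline comparison, 6 sites were annotated to the family, 4 to Timp3 and 1 each to Timp2 and Timp4, and all 6 were higher with doxycycline. In that list 95.8% of 7613 sites were higher and 4.15% lower. The largest fold was at the Timp3 upstream place, chr10:86290049-86290620, with a log2 fold of 1.60 (FDR 4.38e-11). The Timp4 site at chr6:115271850-115272248, in a Syn2 intron 19844 bp before the start, had a log2 fold of 1.59 (FDR 6.76e-12). The site at chr10:86300328-86300784, over exon 1 of Timp3, had a log2 fold of 1.05 and shared 84 bp with the Timp3 promoter window printed above. The farthest Timp3 site, at chr10:86203218-86203488 and 97059 bp before the start, had a log2 fold of 1.35 (FDR 2.57e-07). The Timp2 site at chr11:118360640-118361416 had a log2 fold of 1.05 (FDR 7.73e-08).

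Of the 5 ATAC sites that were lower with blebbistatin, 4 overlapped a site that was higher with doxycycline. The share of all sites of the ATAC list that overlap a doxycycline site was not computed. The count is therefore not shown to be particular to these genes. Of the 4 ATAC sites upstream of Timp3 and Timp2, 3 lay wholly in a doxycycline site and the other shared 94.4% of its length with one. They covered 14.0% to 61.4% of the length of the doxycycline sites, with 1 of the 4 pairs sharing at least 50% of both sites, and the ATAC site at the end of Timp3 overlapped none. These lists share no libraries. Neither upstream place was listed as changed by blebbistatin in the doxycycline experiment, with or without doxycycline. When blebbistatin was added to doxycycline, 4 sites were listed, 3 for Timp3 and 1 for Timp1, and all 4 were lower, as were 99.8% of the 6346 sites of that list, with 0.221% higher. Among them, chr10:86280586-86280723, 19757 bp before Timp3, was also a doxycycline site, with a log2 fold of 1.46 with doxycycline and -1.20 when blebbistatin was added. Those 2 lists share the doxycycline group, so the opposite signs are not independent. The other Timp3 sites of that list lay 73609 bp before the start, at chr10:86226712-86226893 (log2 fold -1.03, FDR 0.00181), and in intron 1 of Timp3, at chr10:86328047-86328477 (log2 fold -1.01, FDR 3.29e-07). The Timp1 site at chrX:20869371-20869555, in its promoter 703 bp before the start, had a log2 fold of -1.04 (FDR 6.81e-06).

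**Figure D4:**
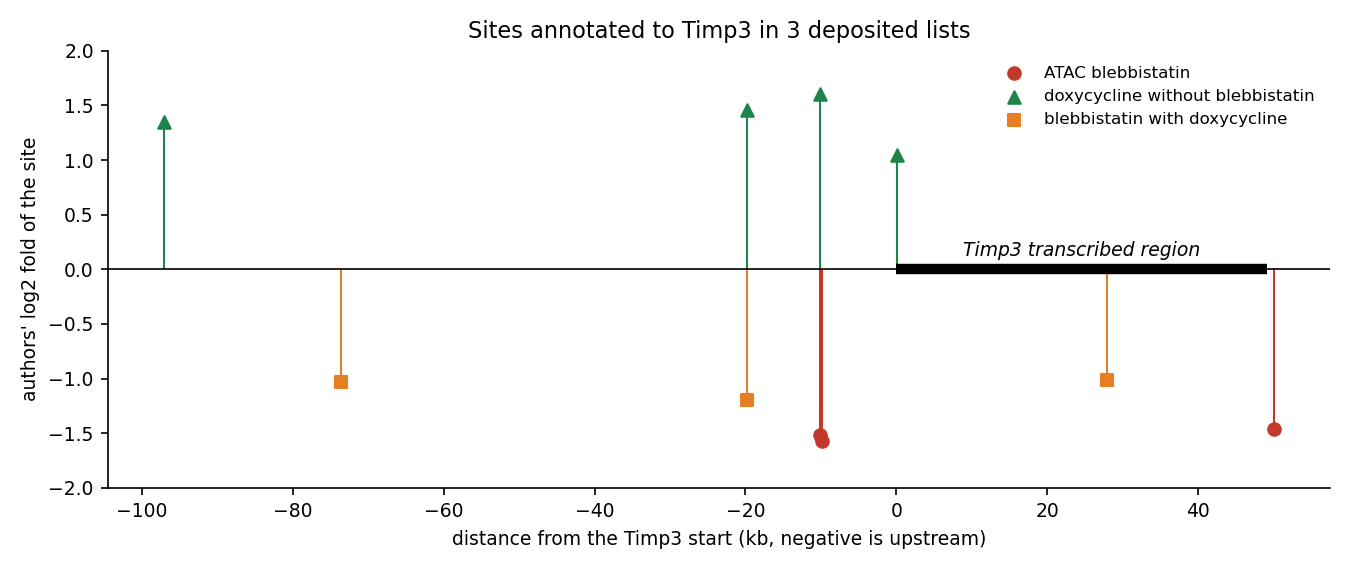
Authors' log2 fold (vertical axis) of the 10 sites annotated to Timp3 against distance from its start in kilobases (horizontal axis). Colours and shapes mark the 3 lists that hold such sites, and the black bar is the transcribed region. All 4 doxycycline sites are above 0 and the 6 sites of the blebbistatin lists below it, and the 2 neighbouring ATAC sites stand where the doxycycline fold is 1.60. That place is in neither blebbistatin list of the doxycycline experiment.

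Timp3 had 10 of the 15 sites, counted per list, 6 lower and 4 higher. Each had the main direction of its list, and chr10:86280586-86280723 was counted in 2 lists. The Timp3 sites before its start all lay in an intron of Syn3, up to 97059 bp away, and carry the Timp3 name by the authors' annotation. Timp2 had 3, Timp1 and Timp4 1 each, and Reck none. For comparison, the 29 metalloproteinases had 49 sites in the 5 lists. An ATAC site inside intron 11 of Reck, annotated to the neighbouring gene Glipr2, is named here after its values were seen. It lies at chr4:43923145-43923283 and had a log2 fold of -2.02 with blebbistatin (FDR 0.00245), and its listed motif was ccaCATTCCt.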

How the data were processed

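RNA was measured in 9 libraries and chromatin sites in 21. Tools named in the submitters' processing notes, with no role given, are HISAT2, Picard, featureCounts, DESeq2, Bowtie2, SAMtools, MACS2, DiffBind and HOMER. The RNA tables hold a signal that the authors deposited, counts divided by 1 size factor per library and scaled separately in each table. Every value above 0 (100%) was a whole multiple of its library's step within a tolerance of 0.01, so whole reads were recovered. The DMSO reads were identical in both tables, and each of the 9 replicate pairs differed beyond sampling noise (chi-square per degree of freedom 2.61 to 8.13). The RNA tables also hold log2 fold changes and adjusted p-values that the authors deposited. The site lists hold log2 group means, log2 folds, p-values and FDRs that the authors deposited. How the peaks were called is not given in the sources used here.

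Genes that averaged at least 10 normalised counts in 6 libraries were tested with limma 3.58.1 (trend, R 4.3.3) on log2(normalised count + 1), which understates the change of low genes, with Benjamini-Hochberg adjustment over all genes and no replicate block. The inhibitors were compared with edgeR 4.0.16 (TMM, quasi-likelihood) on the recovered reads, with at least 10 mean reads. DESeq2 1.42.0 was an alternative, and the fits were tested on simulated data. The doxycycline list heads its reference as blebbistatin alone. It was read as neither drug, since at 13 identical sites of another list it lay -0.128 (SD 0.00439) from neither drug but 1.12 (SD 0.184) from blebbistatin alone. Listed genes are named by the 3 highest and 3 lowest called log2 changes per comparison, and some genes that this rule names are not reported here. The members and lists were chosen with earlier results of these data known.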

Additional observations from a re-analysis of the deposited data

Results flagged for a closer look

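Timp3 and Reck differed between the 2 inhibitors by the edgeR test of the difference itself. A call alone was common there, since 53.1% of the 14955 genes tested were called, 26.9% higher and 26.2% lower. The log2 difference, blebbistatin minus Y27632, was -1.07 for Timp3, with 3 of 3 blebbistatin libraries below all Y27632 libraries. For Reck it was -0.18, with 3 of 3 blebbistatin libraries below all Y27632 libraries. Timp4 also passed that test, at 2.60 from 91 reads against 16, but it reached the minimum of 10 mean reads only through the blebbistatin libraries, where it was high, so this call is a description of the reads.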

How the results depend on the processing

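Against DMSO, Timp1, Timp2 and Timp3 were called with either inhibitor, and Reck with blebbistatin, under every alternative. Each kept its direction. The Timp3 and Reck calls between the inhibitors did the same. The Timp4 calls, with blebbistatin against DMSO and between the inhibitors, also held wherever Timp4 was tested. It passed the filter only through the blebbistatin libraries, where it was high, so those calls describe the reads and add no support. The Timp3 log2 change with blebbistatin ranged from -1.35 to -1.32. Timp4 was not tested at a minimum mean of 50 normalised counts, which left 1 gene called higher with blebbistatin, or at 50 mean reads or without blebbistatin replicate 2 or replicate 3 between the inhibitors, which left 0 called higher there in edgeR. Reck with Y27632 was not called with DESeq2 (log2 change -0.12, adjusted p 0.0857), nor in limma with the replicate block (-0.11, adjusted p 0.0630). Leaving out one library gave -0.13 to -0.10. Timp1 between the inhibitors ranged from -0.057 to 0.063 with 1 library left out, turning sign without blebbistatin replicate 1 (-0.057) and without Y27632 replicate 2 (-0.034). At an FDR under 0.01, 2 of the 5 ATAC blebbistatin sites remained. With any site within 150 kb of a member counted, an alternative added after seeing the data, there was 1 for blebbistatin without doxycycline, 14 for doxycycline and 11 for blebbistatin with doxycycline. At a reciprocal overlap of 50%, 2 of the 5 overlapping pairs remained. Replicate numbers did not pair the libraries: same-numbered libraries had deviations that correlated at -0.16, 0.05 and 0.05 for blebbistatin and -0.21, -0.05 and -0.10 for Y27632. The replicate block moved all calls from 7894 to 7604, from 5328 to 4633 and, between the inhibitors, from 7935 to 7700. Depth limits Timp4 with DMSO and Y27632, where single reads set the values.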
